A study of Mus musculus with 2 samples.

Results

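The 59 genes described here encode the machinery that copies DNA in S phase: the proteins that license origins, the helicase, the polymerases, the sliding clamp and its loader, the enzymes that supply nucleotides, and their partners in checkpoint and chromatin work. They were chosen by name, and all 59 were found among the 39017 gene rows of the count table. RNA came from Lin- Sca-1+ c-Kit+ (LSK) cells of mouse bone marrow, the fraction in which haematopoietic stem cells and multipotent progenitors lie. The WT LSK library pooled 12 mice and the miR-146a-/- LSK library pooled 6, and both groups were C57BL/6J animals aged 10 to 14 weeks. The miR-146a-/- mice lack a microRNA that restrains NF-kB signalling, and neither group is labelled with a treatment.

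Replication begins when the origin recognition complex, Cdc6 and Cdt1 load a ring of MCM proteins onto DNA before S phase. Cdc45 and the GINS complex then turn the ring into an active helicase, polymerases copy the opened strands, and the PCNA clamp keeps them on the template. E2F factors switch on most of these genes together as a cell leaves G1, so their transcripts are widely read as a sign of cycling. Most long-term stem cells in the marrow are quiescent, while the multipotent progenitors that make up most LSK cells divide more often.

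There was 1 library per genotype, so no difference has a replicate check, no test is given, and every statement compares these 2 libraries. Total counts were 35069136 in WT and 22231389 in miR-146a-/-. The share on protein-coding genes was 81.4% in WT against 51.5% in the other library, and that on Gm42418, a gene model that overlaps a ribosomal RNA repeat, was 2.13% against 27.2%. Libraries were scaled by TMM, which trims extreme genes, under which the median log2 ratio of all 13880 genes with at least 20 summed counts (the measured genes) was -0.01. Xist had 10988 and 49105 counts and the Y-linked gene Kdm5d 1263 and 67, and the sex of the mice is not among the labels used here. Sex makeup, pool size, the library differences in protein-coding and Gm42418 share, and genotype cannot be told apart here. The Mir146 gene had 0 counts in both libraries, so the deletion itself could not be checked.

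Both genes that define the sort were abundant: Kit had 26003 WT counts and 12167 miR-146a-/- counts, and Ly6a, which encodes Sca-1, had 3113 and 1248. After scaling both were higher in miR-146a-/-, with log2 ratios of 0.38 for Kit and 0.16 for Ly6a. Of 7 T and NK cell markers, Cd3e, Cd3d and Cd8a were at 0 in both. The others were not: Nkg7 had 1602 and 530 counts, Cd4 86 and 68, Klrb1c 44 and 30, and Trbc2 11 and 2. Over 11 LSK and stem cell markers the summed level was 2620.1 CPM (counts normalised to a library of 1000000) in WT and 3051 in miR-146a-/-, with a median log2 ratio of 0.38. The markers went both ways: 8 intervals (95%, for counting error, described below) lay above 0, and those of Cd34 (-0.19), Flt3 (-0.23) and Procr (-0.39) lay below it. Among measured genes 28.0% of intervals lay above 0 and 29.1% below it.

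Transcripts of nearly the whole replication machinery were lower in the miR-146a-/- library. Of 59 genes, 58 had a negative log2 ratio (98.3%, against 51.2% of measured genes) and 1, the clamp gene Pcna, was at 0.00. The median was -0.50, or 1.41-fold lower, and the ratios ran from -0.92 for Gins3 to 0.00. Every one of the 59 passed the count minimum, the least abundant being Ccne1 with 275 summed counts. As bulk RNA was measured from 1 library per genotype, fewer cells in S phase, less transcript per cell and the library differences given above cannot be told apart.

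Each ratio carries an exact 95% interval (Clopper-Pearson, from the 2 counts) that covers counting error only. That interval lay wholly below 0 for 50 of the 59 genes, where 29.1% of measured genes did so, and wholly above 0 for 0 of them, against 28.0%. The other 9 intervals held 0. A gene was called lower or higher when its whole interval lay beyond 1.5-fold. By that rule 4 genes were called lower (6.78%, against 1.53% of measured genes) and 0 were called higher (against 5.35%). The called genes were Mcm2, Pold1, Dut and Ung, whose intervals ended just past the threshold. With DESeq2 size factors, upper-quartile scaling or TMM on protein-coding genes Mcm2 alone was still called, and with TMM over genes with 200 or more summed counts 0 were. The 58 negative ratios were negative under each of 8 other settings tried. Most of these settings move all ratios nearly alike, by little or downward, so the kept sign is no independent check of the direction.

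Summed over the 59 genes, the level was 4511 CPM in WT and 3302 CPM in miR-146a-/-, 26.8% lower. Scaled instead by each library's protein-coding total, the genes held 0.737% (95% Clopper-Pearson interval 0.734 to 0.740%) in WT and 0.482% (0.478 to 0.486%) in miR-146a-/-. The 2 intervals did not overlap. Lars2, another transcript far more abundant in the miR-146a-/- library (19871 and 323060 counts), is part of that total, and without it the shares were 0.737% and 0.496%. Scaling by total counts moved the median of all measured genes to -0.83 and that of the replication genes to -1.32. Another scaling factor moves all ratios alike, so the distance between these medians, -0.49, is nearly fixed by construction and does not bear on which scaling is right. Over all measured genes, higher genes made 77.8% of calls by TMM and 1.94% by total counts.

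**Figure D1:**
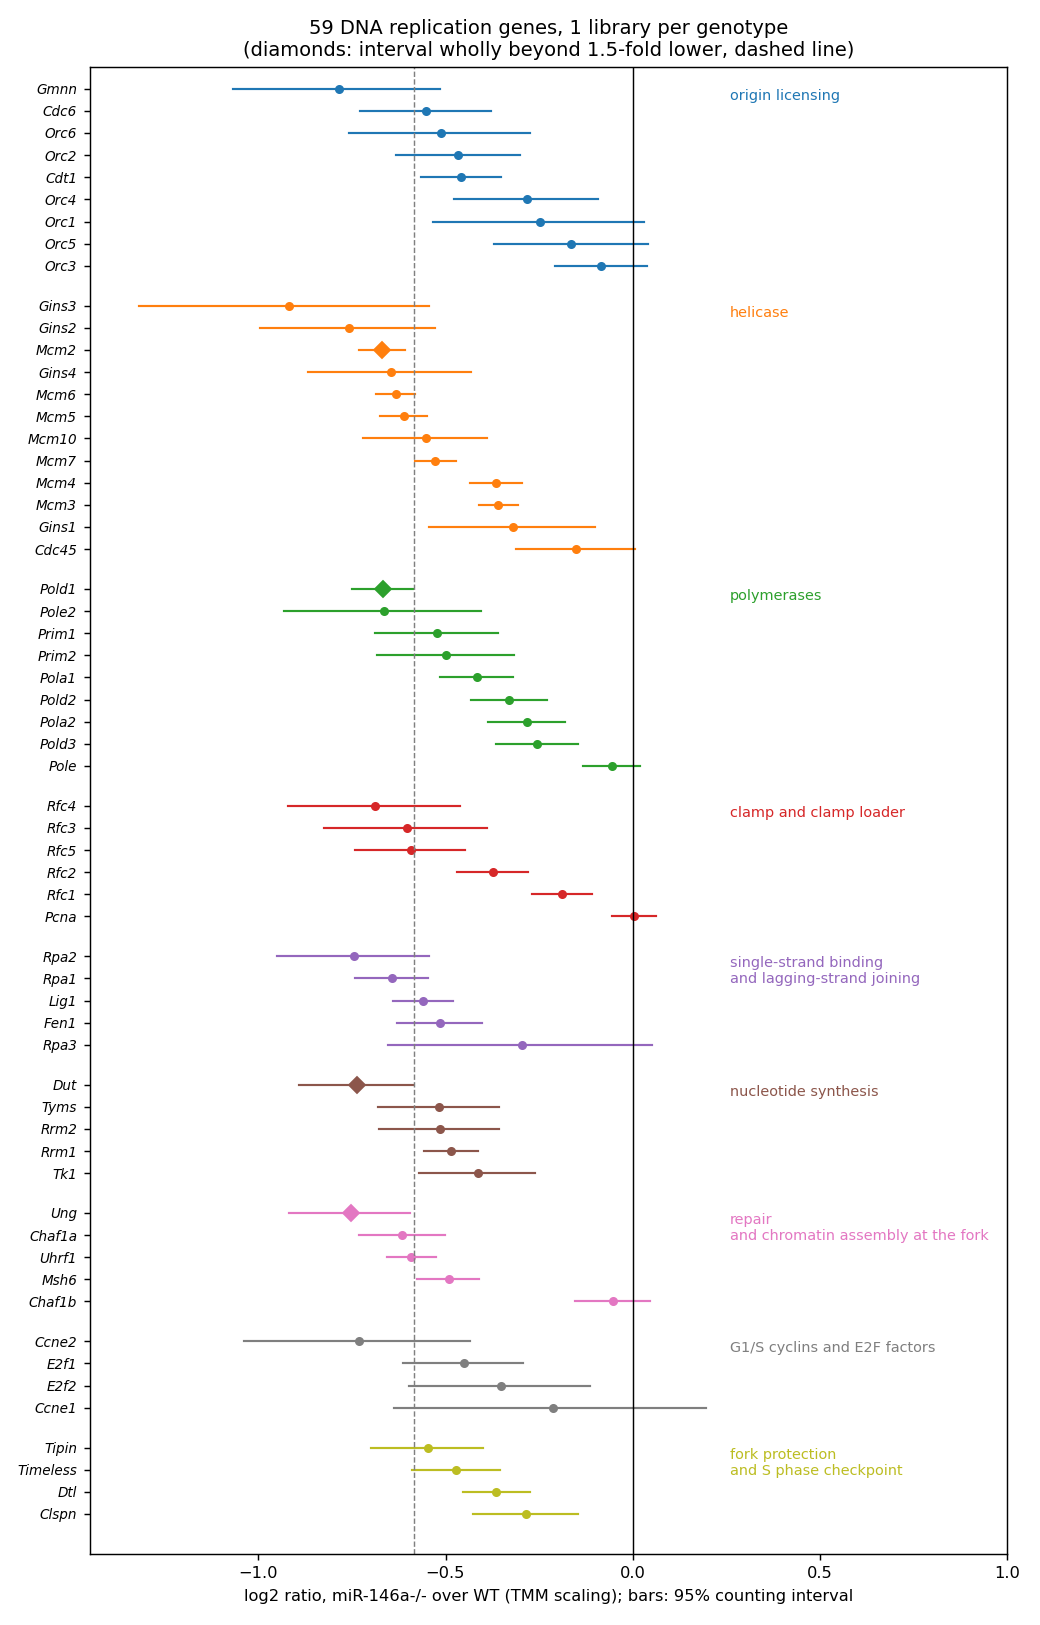
Log2 ratio of miR-146a-/- over WT on the x axis for each of the 59 genes, grouped by role, with bars for the 95% counting interval and diamonds for the 4 genes called lower. Points lie left of 0 in every group, with Pcna at 0.00 and Gins3 at -0.92 the extremes.

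Promoter letters, which the choice by name did not use, were counted next. RefSeq promoter windows (GRCm38.p6, 250 bases before to 50 after the start) matched 49 of the 59 genes; Ccne2, Gins1, Gins2, Gins4, Gmnn, Mcm4, Pole, Prim2, Rfc2 and Tipin had none. E2F letters were sought as TTTCCCGC, TTTGGCGC, TTTCGCGC or TTTGCCGC on either strand, and the CCAAT box as CCAAT on either strand. E2F letters stood in a window of 20 of the 49 genes (40.8%), against 4.78% of 9735 measured protein-coding genes and 2.26% of all 32851 windows. Of 60 further replication genes with a window, 15 held them. CCAAT stood in 29 of the 49 (59.2%), against 42.9% of measured genes, 37.4% of all windows and 45.0% of the further replication genes. Replication genes with E2F letters had a median log2 ratio of -0.51 and the 29 without them -0.49, so the letters did not separate larger from smaller differences. A match is a description and not a bound site.

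Windows of 5 genes show the range. Mcm3 and Mcm6, abundant helicase subunits, hold both kinds of letters, and in Mcm6 a pair of E2F matches on opposite strands overlap. Pold1, called lower, holds E2F letters just after its start. Ung, also called lower, holds neither kind, and Pcna, the gene at 0.00, holds CCAAT letters alone. All are written 5′ to 3′ on the gene's strand, with E2F and CCAAT letters in capitals.
Mcm3 (chr1:20820263-20820562, minus strand): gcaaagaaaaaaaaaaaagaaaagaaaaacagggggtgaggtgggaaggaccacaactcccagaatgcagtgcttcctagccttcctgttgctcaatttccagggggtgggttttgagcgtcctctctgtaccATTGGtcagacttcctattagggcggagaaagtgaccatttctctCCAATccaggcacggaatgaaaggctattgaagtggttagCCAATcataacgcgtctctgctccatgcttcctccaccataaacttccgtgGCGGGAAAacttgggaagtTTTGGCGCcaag
Mcm6 (chr1:128359656-128359955, minus strand): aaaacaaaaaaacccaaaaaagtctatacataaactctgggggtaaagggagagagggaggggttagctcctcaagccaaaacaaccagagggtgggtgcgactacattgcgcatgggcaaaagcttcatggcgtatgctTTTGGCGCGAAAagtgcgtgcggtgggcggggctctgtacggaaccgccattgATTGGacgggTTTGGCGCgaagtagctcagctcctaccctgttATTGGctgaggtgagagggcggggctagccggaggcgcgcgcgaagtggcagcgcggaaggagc
Pold1 (chr7:44548766-44549065, minus strand): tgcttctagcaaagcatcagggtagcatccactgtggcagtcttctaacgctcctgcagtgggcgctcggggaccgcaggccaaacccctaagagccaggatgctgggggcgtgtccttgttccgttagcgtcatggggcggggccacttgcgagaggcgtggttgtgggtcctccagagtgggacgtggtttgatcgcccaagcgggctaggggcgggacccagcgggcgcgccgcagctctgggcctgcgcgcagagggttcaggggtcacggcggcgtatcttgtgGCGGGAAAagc
Ung (chr5:114130185-114130484, plus strand): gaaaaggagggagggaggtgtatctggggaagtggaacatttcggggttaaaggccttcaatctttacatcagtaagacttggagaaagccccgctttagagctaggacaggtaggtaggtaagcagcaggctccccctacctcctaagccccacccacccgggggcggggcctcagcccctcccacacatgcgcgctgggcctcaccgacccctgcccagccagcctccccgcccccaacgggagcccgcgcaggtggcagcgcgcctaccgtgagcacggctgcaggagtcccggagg
Pcna (chr2:132253131-132253430, minus strand): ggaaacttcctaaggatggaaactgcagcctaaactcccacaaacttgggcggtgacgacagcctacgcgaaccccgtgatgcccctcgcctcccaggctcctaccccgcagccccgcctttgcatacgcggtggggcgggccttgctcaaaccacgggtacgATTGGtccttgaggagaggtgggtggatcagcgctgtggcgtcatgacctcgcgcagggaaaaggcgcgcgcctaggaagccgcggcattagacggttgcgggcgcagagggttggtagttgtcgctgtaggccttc

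Origin licensing genes, 9 in number, had a median log2 ratio of -0.46 and a log2 ratio of sums of -0.37 (-0.43 to -0.32). All 9 ratios were negative, 6 intervals lay below 0 and 0 genes were called. For this and each later role, the shares over all measured genes were 51.2% negative, 29.1% below 0 and 1.53% called lower. Gmnn encodes geminin, which blocks relicensing by binding Cdt1. Its counts were 639 in WT against 133 in miR-146a-/-, or 13.7 and 7.96 CPM. This gave a log2 ratio of -0.78 (-1.07 to -0.51), the lowest of the group. Cdc6, the ATPase that helps load the MCM ring, had 1377 and 337 counts (29.6 and 20.2 CPM) and a ratio of -0.55 (-0.73 to -0.38). Cdt1, its partner in loading, had 3519 and 919 counts and a ratio of -0.46 (-0.56 to -0.35). There were 5.51 Cdt1 counts per Gmnn count in WT and 6.91 in miR-146a-/-, though the intervals of the 2 genes overlapped.

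The origin recognition complex differed less between the libraries than the MCM ring it helps to load. Its 6 subunit genes summed to 139.8 CPM in WT and 116.9 CPM in miR-146a-/-, a log2 ratio of sums of -0.26 (-0.33 to -0.19). Orc3 had the highest ratio of the licensing genes, with 2101 and 711 counts (45.1 and 42.5 CPM) and -0.08 (-0.21 to 0.04). Orc5 (-0.16) and Orc1 (-0.25) also had intervals that held 0. Orc4 was at -0.28, Orc2 at -0.47 and Orc6 at -0.51, all with intervals below 0. Nif3l1, a gene at -0.19, overlaps 29.8% of the exon length of Orc2 on the opposite strand. Orc1 is the subunit whose level is known to vary through the cycle, yet its 457 and 138 counts were too few to separate it from 0.

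Helicase genes formed the most abundant group and one of the lowest, with a median of -0.58 over 12 genes. They summed to 1691 CPM in WT and 1173 CPM in miR-146a-/-, and 11 of 12 intervals lay below 0. The MCM ring alone, Mcm2 to Mcm7, summed to 1567 and 1084 CPM, a log2 ratio of sums of -0.53 (-0.56 to -0.51). This interval lay wholly below that of the origin recognition complex.

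Mcm2 was the one helicase gene called lower. It lies on chromosome 6 from 88883474 to 88898780 (mm10, minus strand; ENSMUSG00000002870). Its counts were 11664 in WT against 2629 in miR-146a-/-, or 250.4 and 157.3 CPM. Its log2 ratio was -0.67 (-0.73 to -0.61), 1.59-fold lower. Mcm2 also carries histones at the fork. Mcm6 (15733 and 3641 counts) stood at -0.63 (-0.68 to -0.58) and Mcm5 (10692 and 2510 counts) at -0.61 (-0.68 to -0.55). Mcm7 (13661 and 3401 counts) stood at -0.53 (-0.58 to -0.47).

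The ring did not differ evenly. Mcm3 had 13504 and 3778 counts and a ratio of -0.36 (-0.41 to -0.31). Mcm4 had 7749 and 2158 counts and a ratio of -0.37 (-0.43 to -0.30). The intervals of Mcm3 and Mcm4 lay above those of all 4 other subunits. Per kilobase of exon the order of levels was the same in both libraries, with Mcm3 first (77.3 CPM per kb in WT, 60.2 in miR-146a-/-) and Mcm2 last (36.0 and 22.6). Mcm3 made 21.7% of the summed per-length level of the ring in WT and 24.2% in miR-146a-/-, and Mcm2 made 10.1% and 9.08%.

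Cofactors that activate the ring spread more widely. Gins3 had the lowest ratio of all 59 genes, with 359 WT counts against 68 (7.71 and 4.07 CPM) and -0.92 (-1.32 to -0.54). Its counts are few, so it was not called. Gins2 (877 and 186 counts, 18.8 and 11.1 CPM) was at -0.76 (-0.99 to -0.53), but 67.3% of its exon length overlaps Gse1 on the opposite strand, a gene at 0.53. Gins4 was at -0.65, Gins1 at -0.32 and Mcm10, which helps start the helicase, at -0.55. Cdc45 was the highest of the group, with 1326 and 428 counts (28.5 and 25.6 CPM) and -0.15 (-0.31 to 0.01). The 4 GINS proteins work as 1 complex. The intervals of their genes overlapped one another, but that of Gins1 (-0.54 to -0.10) barely met those of Gins2 and Gins3.

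**Figure D2:**
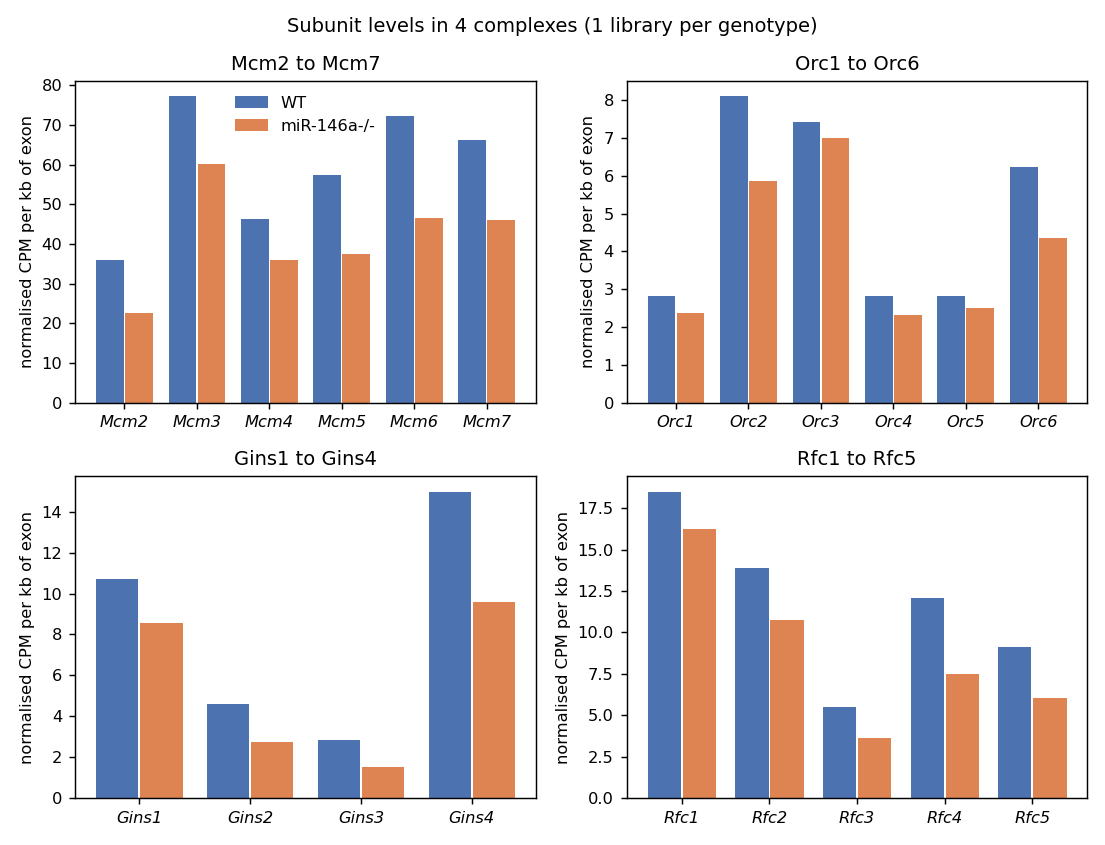
Normalised CPM per kilobase of merged exon length on the y axis for subunits of the MCM ring, the origin recognition complex, GINS and the clamp loader, with 1 bar per library and no error bar since there is 1 library per genotype. The miR-146a-/- bar is the shorter for each subunit, narrowly for Orc3 (7.41 and 6.99) and clearly for Mcm6 (72.4 and 46.7).

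Polymerase genes had a median of -0.42, with 9 of 9 ratios negative, 8 intervals below 0 and 1 gene called. Pold1 encodes the catalytic subunit of DNA polymerase delta, which copies the lagging strand. It lies on chromosome 7 from 44532746 to 44548849 (mm10, minus strand; ENSMUSG00000038644). Its counts were 6500 in WT against 1468 in miR-146a-/-, or 139.5 and 87.8 CPM, and a log2 ratio of -0.67 (-0.75 to -0.59). Of its accessory subunits in this group, Pold2 was at -0.33 (-0.43 to -0.23) and Pold3 at -0.26 (-0.37 to -0.15). Both differed less, and neither interval reached that of Pold1. The small subunit Pold4, listed among the further replication genes, went the other way, at 0.59 (0.43 to 0.75).

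The leading-strand polymerase epsilon showed the opposite split, its catalytic gene being the nearer to 0. Pole had 5540 and 1912 counts (118.9 and 114.4 CPM) and a ratio of -0.06 (-0.13 to 0.02). Pole2, its second subunit, had 654 and 148 counts (14.0 and 8.85 CPM) and -0.66 (-0.93 to -0.41), with no overlap between the 2 intervals. Polymerase alpha and primase, which lay down the first bases, stood between: Prim1 at -0.52, Prim2 at -0.50, Pola1 at -0.42 and Pola2 at -0.28. Pole is one of the longest of these transcripts, and with exon length and GC content adjusted for it was at -0.24 and Pole2 at -0.61.

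The clamp gene Pcna stood apart from the loader that places it. Pcna lies on chromosome 2 from 132249162 to 132253314 (mm10, minus strand; ENSMUSG00000027342). Its counts were 8808 in WT against 3167 in miR-146a-/-, or 189.1 and 189.5 CPM. Its log2 ratio was 0.00 (-0.06 to 0.06), turning to -0.064 with no count filter and to -0.82 by total counts. Per kilobase it was the most abundant of all 59 genes in both libraries, at 78.8 and 78.9 CPM per kb. A processed pseudogene, Pcna-ps2, is 99.2% identical over 781 bases but had 24 and 7 counts.

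Loader genes were all lower by ratio, with every interval below 0 and 0 called. Rfc4 had 862 and 192 counts (18.5 and 11.5 CPM) and -0.69 (-0.92 to -0.46), and 12.7% of its exon length overlaps Eif4a2. Rfc3 had 924 and 218 counts (19.8 and 13.0 CPM) and -0.60 (-0.82 to -0.39). Rfc5 was at -0.59 and Rfc2 at -0.37. The large subunit Rfc1 was at -0.19 (-0.27 to -0.11), above the intervals of the 4 small subunits. There were 1.70 Pcna counts per Rfc1 count in WT and 1.94 in miR-146a-/-, and 1.36 and 2.16 per Pold1 count.

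Genes that protect single strands and join lagging-strand fragments had a median of -0.56 over 5 genes, none of them called. Rpa2, a subunit of the single-strand binding protein RPA, had 1140 and 244 counts (24.5 and 14.6 CPM) and -0.74 (-0.95 to -0.54). Rpa1, the large subunit, had 4628 and 1063 counts (99.3 and 63.6 CPM) and -0.64 (-0.74 to -0.55). Rpa3, the smallest, was the highest of the group at -0.29 (-0.65 to 0.05) from 301 and 88 counts (6.46 and 5.27 CPM), and its interval overlapped those of both partners. The ligase Lig1 was at -0.56 and the flap nuclease Fen1 at -0.52. Fen1 shares 78.8% of its exon length with the antisense gene Gm10143, which had 5 and 2 counts.

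Nucleotide synthesis genes had the smallest spread among roles of 5 or more genes (SD 0.12), with all 5 ratios between -0.74 and -0.41, every interval below 0 and 1 gene called. Dut encodes the enzyme that destroys dUTP and so keeps uracil out of DNA. It lies on chromosome 2 from 125247190 to 125258608 (mm10, plus strand; ENSMUSG00000027203), with 2017 WT counts against 434 (43.3 and 26.0 CPM). Its ratio was -0.74 (-0.89 to -0.59). Tyms, which makes thymidylate, had 1575 and 395 counts (33.8 and 23.6 CPM) and -0.52 (-0.68 to -0.36). The highest was the salvage kinase Tk1, with 1594 and 429 counts (34.2 and 25.7 CPM) and -0.41 (-0.57 to -0.26). The ribonucleotide reductase subunits kept their proportion: Rrm1 was at -0.49 and Rrm2 at -0.52, with 4.87 Rrm1 counts per Rrm2 count in WT and 4.97 in miR-146a-/-.

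Repair and chromatin genes of the fork had a median of -0.59 over 5 genes, 1 of them called. Ung encodes the glycosylase that removes uracil from DNA, the partner of Dut in keeping uracil out. It lies on chromosome 5 from 114130386 to 114139323 (mm10, plus strand; ENSMUSG00000029591). Counts were 1805 in WT against 384 in miR-146a-/- (38.7 and 23.0 CPM), a ratio of -0.75 (-0.92 to -0.59). Uhrf1, which brings DNA methylation to new strands, had 9898 and 2357 counts and -0.59 (-0.66 to -0.53). The mismatch sensor Msh6 was at -0.49.

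The subunits of the histone chaperone CAF-1 differed from each other. Chaf1a had 3285 and 769 counts (70.5 and 46.0 CPM) and -0.62 (-0.73 to -0.50). Chaf1b had 3098 and 1071 counts (66.5 and 64.1 CPM) and -0.05 (-0.16 to 0.05). There were 1.06 Chaf1a counts per Chaf1b count in WT and 0.718 in miR-146a-/-. Ubxn6, at -0.15, overlaps 52.5% of the exon length of Chaf1a, so part of that count may belong to it.

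Regulators of S phase entry followed the same direction at lower counts. Ccne2, a cyclin that activates CDK2, had 523 and 113 counts (11.2 and 6.76 CPM) and -0.73 (-1.04 to -0.44). Of its exon length, 17.4% overlaps Ints8 on the opposite strand, a gene at -0.24. The related cyclin Ccne1 had 210 and 65 counts (4.51 and 3.89 CPM) and -0.21 (-0.64 to 0.19). The intervals of the 2 cyclins overlapped. E2f1, an activating E2F factor, was at -0.45 (-0.61 to -0.29) from 1548 and 406 counts (33.2 and 24.3 CPM), and E2f2 at -0.35 (-0.60 to -0.11). In the fork protection group all 4 intervals lay below 0 and 0 genes were called. Tipin had 1883 and 462 counts (40.4 and 27.6 CPM) and -0.55 (-0.70 to -0.40). Its partner Timeless had 2888 and 747 counts (62.0 and 44.7 CPM) and -0.47 (-0.59 to -0.36). Dtl, which marks Cdt1 for destruction, was at -0.36. The checkpoint mediator Clspn, highest of the group, had 1833 and 540 counts (39.3 and 32.3 CPM) and -0.28 (-0.43 to -0.15).

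Across the 9 roles the medians ran from -0.59 to -0.40, a narrower range than that found inside any single role. Medians vary less than single genes, so this comparison does not show the roles to be alike. Of the 59 genes, 38 lay below -0.40, 14 between -0.40 and -0.20, and 7 at -0.20 or above: Orc3, Orc5, Cdc45, Pole, Pcna, Rfc1 and Chaf1b. Named by that bound after their values were seen, these 7 came from 5 different roles.

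The pathway beyond these genes showed the same direction with more exceptions. Among 78 further replication, nucleotide, checkpoint and G1/S genes, all measured, 66 ratios were negative, 57 intervals lay below 0 and 7 above, 5 genes were called lower and 0 higher. Over all measured genes 51.2% of ratios were negative, 29.1% of intervals lay below 0 and 28.0% above, 1.53% were called lower and 5.35% higher. The median of the 78 was -0.30. The called genes were Rad1, a checkpoint clamp subunit, at -1.06 (-1.41 to -0.73), the nucleotide kinase Nme1 at -1.02, the helicase Mcm8 at -0.88, the histone acetyltransferase Hat1 at -0.81 and the folate enzyme Shmt1 at -0.74. At the other end were Pold4, the small subunit of polymerase delta, with 949 and 512 counts and 0.59 (0.43 to 0.75), and Samhd1, which degrades dNTPs, with 5755 and 2747 counts and 0.41 (0.35 to 0.48). Chromatin assembly genes outside the 59 had 8 of 8 intervals below 0 and a median of -0.41. G1/S control genes had 11 of 19 below 0, 3 above and a median of -0.11.

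Genes of mitosis and G2 did not differ as evenly. Of 16, 13 had negative ratios, 11 intervals lay below 0 and 3 above, 0 were called and the median was -0.28. The shares over all measured genes were 51.2%, 29.1% and 28.0%, with 1.53% called lower and 5.35% higher. Ncapg (-0.78) and Bub1 (-0.64) were lowest, while the proliferation marker Mki67 had 15324 and 6557 counts and 0.25 (0.21 to 0.30), and Cenpe was at 0.18. Their summed level was 801.6 CPM in WT and 794.6 CPM in miR-146a-/-, a log2 ratio of sums of -0.01 (-0.04 to 0.02). The interval of the same sum over the 59 replication genes, -0.46 to -0.44, lay below it. Mki67 alone gave 328.9 CPM of the sum in WT and 392.3 CPM in miR-146a-/-. Of 7 CDK inhibitor genes 5 were measured and 2 called higher, against 5.35% of measured genes: Cdkn1a at 1.35 and Cdkn1b at 0.79. Cdkn2c was at -0.10 and Cdkn1c at 0.13.

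**Figure D3:**
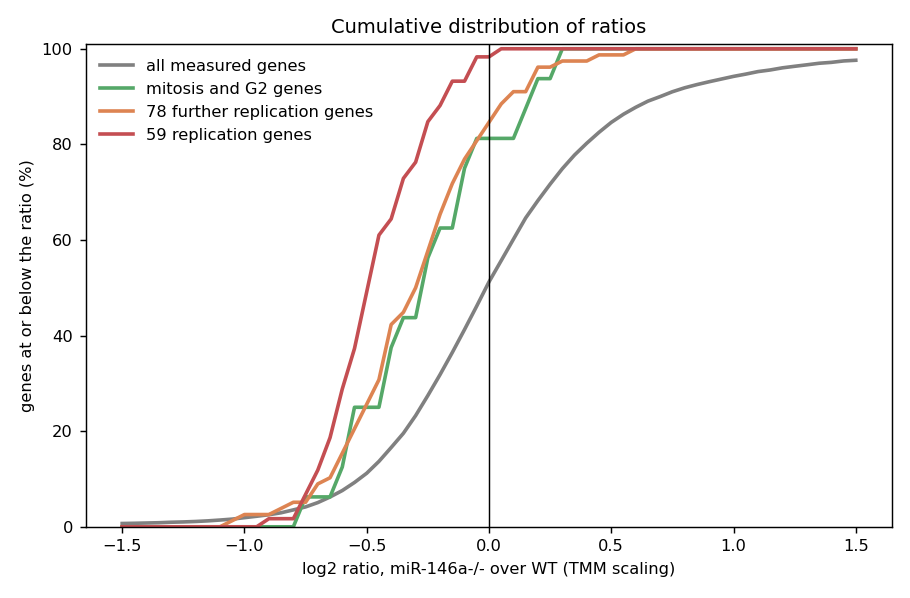
Percentage of genes at or below each log2 ratio (x axis, miR-146a-/- over WT) for the 59 replication genes, the 78 further replication genes, 16 mitosis and G2 genes and all 13880 measured genes. The curve of the 59 genes reaches 98.3% at 0, where all measured genes reach 51.2%. At the low end the order differs, with 1.70% of the 59 genes and 3.54% of all measured genes at or below -0.80.

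Short transcripts as a whole were lower in the miR-146a-/- library, so ratios were also set against length. The median ratio of protein-coding genes ran from -0.17 in the decile with the shortest merged exons to 0.17 in that with the longest. Replication genes lay under that trend in every decile, with medians from -0.65 over 5 genes in the shortest decile to -0.36 over 3 genes in the longest. Across the 59 genes Spearman's rho between ratio and length was 0.21, and across 12319 measured protein-coding genes it was 0.21, a description over genes that share 2 libraries. With both length and GC content adjusted for, the median of the 59 was -0.49 and that of protein-coding genes was -0.06. Then 51 intervals lay below 0 and 1, that of Pcna at 0.06, above it, and the call of Dut ended (-0.68) while Chaf1a was called (-0.76). Of protein-coding genes so adjusted, 34.1% had intervals below 0, 24.5% had them above 0 and 1.42% were called lower.

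**Figure D4:**
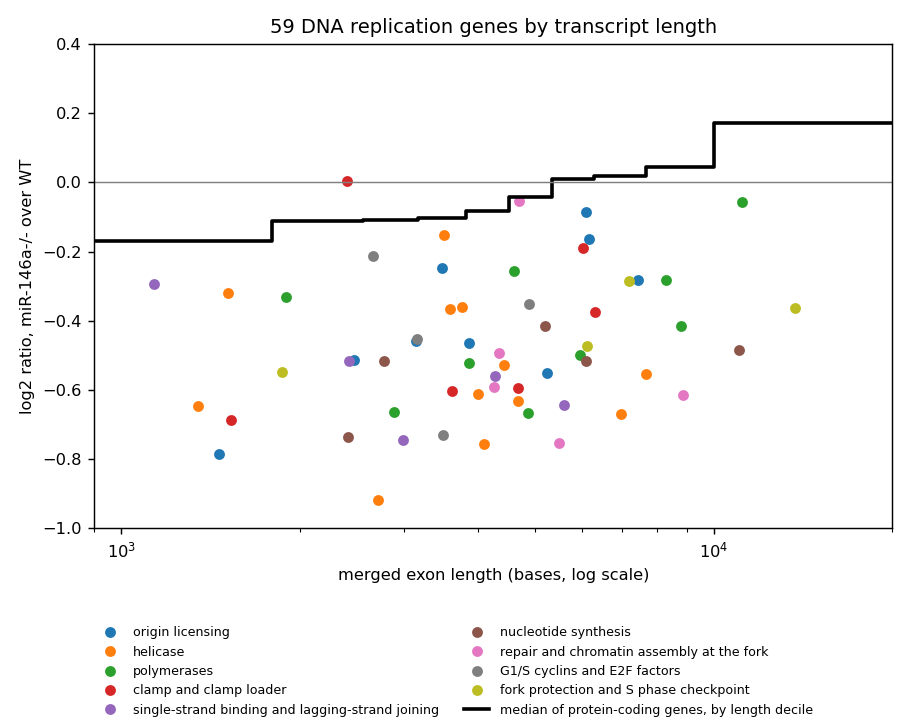
Log2 ratio (y axis) against merged exon length in bases (x axis, log scale) for the 59 replication genes, coloured by role (1 point per gene), with a stepped line for the median of protein-coding genes in each length decile. Every point lies below the line but Pcna (0.00), with Chaf1b (-0.05) just under it.

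Some counts could hold reads of other genes, since strand use in counting is not given in the sources used here. Of the 59 genes, 9 shared 10% or more of their exon length with another gene and 7, Rfc5 among both sets, had a stretch of 200 or more bases at 95% identity or more elsewhere. Over the 44 genes with neither, all 44 ratios were negative, 37 intervals lay below 0, the same 4 were called (9.09%) and the median was -0.46. The shares over all measured genes were 51.2% negative, 29.1% below 0 and 1.53% called lower. Mcm7 belongs to the set left out, since a processed pseudogene, Gm5487, is 97.7% identical to it over 2157 bases, and so do Uhrf1, Cdc6, Rrm2, Tyms, Rfc5 and Pcna.

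Seed matches for the deleted microRNA stood in few of these genes. The seed of miR-146a-5p, bases 2 to 8 from its 5′ end, is shown in capitals, and its match in the 3′ untranslated region is AGTTCTC. That match occurred in 5 of the 59 genes (8.47%), against 12.6% of 12249 measured protein-coding genes. The 5 genes had a median log2 ratio of -0.36 and the other replication genes -0.51. Each of the 5 ratios was negative, and each site is printed with the match in capitals.
miR-146a-5p: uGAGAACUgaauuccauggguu
Dtl site: agtgagaccagggcAGTTCTCtagggtc
Clspn site: cagaaacataggccAGTTCTCttctatc
Rfc1 site: gctctgtctttttgAGTTCTCatggcct
Rpa1 site: gaaccttccgctccAGTTCTCagccacc
Uhrf1 site: gtcatgctggtaggAGTTCTCcccacac

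Markers of other cells went in different directions beside these results. Among all measured genes 1.53% were called lower, 5.35% were called higher and 28.0% of intervals lay above 0. Of 7 neutrophil markers 6 were measured and 3 called lower from few counts: S100a9 (152 and 23), Ltf (121 and 6) and Ngp (211 and 29). S100a8 went the other way, at 0.30 (-0.56 to 1.11) from 43 and 19 counts. The neutrophil markers summed to 13.9 CPM in WT and 5.98 CPM in miR-146a-/-. Of 5 granulocyte and monocyte progenitor markers 2 were called higher (Mpo and Elane), and the sum was 298.7 and 465.0 CPM. Erythroid markers (5 of 8 measured, 2 intervals above 0) summed to 3.56 and 5.03 CPM, and B cell markers (3 of 8 measured) to 19.0 and 19.0 CPM. T and NK cell markers (3 of 7 measured, 2 intervals above 0, Cd4 called higher from 86 and 68 counts) summed to 37.4 and 37.7 CPM. Stromal and endothelial markers (3 of 6 measured, 1 interval above 0) summed to 57.1 and 62.2 CPM. The 6 monocyte and macrophage markers summed to 85.9 and 85.6 CPM, with ratios of both signs. Lyz2, the most abundant, was at -0.29 (-0.40 to -0.18), while Csf1r was at 0.72 (0.49 to 0.95) and Cd68 at 0.63 (0.41 to 0.85). Of the LSK markers Gata2 was called higher at 0.97. The part of cell makeup in the lower replication transcripts was not tested.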

How the data were processed

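RNA-seq libraries of LSK cells from 1 pool of WT and 1 pool of miR-146a-/- mice were compared. The authors deposited raw counts, whole numbers of reads for each Ensembl identifier. Per the file headers, alignments placed splice junctions on the genome and duplicates were flagged. STAR 2.5.3a, Salmon 0.9.0 and mm10 are listed, per the submitters' processing notes, without saying what each did. How reads were counted (program, strand, annotation, flagged duplicates) is not given in the sources used here.

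Names, positions and exons came from GENCODE M21 (GRCm38, the assembly of mm10). Of 39017 identifiers, 1324 had no entry there. Genes with at least 20 summed counts were scaled by TMM in edgeR 4.0.16 (R 4.3.3). With 1 library per genotype edgeR's quasi-likelihood test could not be run, so no p-value is given. Log2 ratios used a prior count of 0.5, and 95% intervals were exact Clopper-Pearson bounds of each gene's share of its counts. They cover counting error only, since reads lack molecular identifiers and animals were pooled. Calls were made across all measured genes and only the named lists are printed. The scripts were tested on simulated data. Close copies were sought with blastn 2.17.0.

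The genes, lists and tests were chosen with earlier results of these data known. All 59 genes are named, with full values for called genes and, in each role, the 2 lowest and the highest. Other replication genes, mitosis genes and CDK inhibitors are named where called or among the 2 lowest and 2 highest with 200 or more counts, and markers where called. Any other gene, such as Kit, Ly6a, other uncalled markers, the T cell genes at 0, Lars2 or a gene that overlaps a member, was chosen after its values were seen. Scaling was repeated by total counts, by the upper quartile, by DESeq2 1.42.0 size factors and by TMM on protein-coding genes. Further alternatives were other count filters, a prior count of 5, other folds, fewer E2F letters, and a quadratic adjustment for exon length and GC content. Leaving out genes with shared sequence was added after seeing the data.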

Additional observations from a re-analysis of the deposited data

How the results depend on the processing

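No paired analysis was possible because each genotype has 1 library, so no replicate could be left out either. Members of the 59 called lower, 4 by the main scaling, numbered 1 with DESeq2 size factors, 1 with upper-quartile scaling, 1 with TMM on protein-coding genes, 0 with 200 or more summed counts, 11 with no count filter, 0 beyond 2-fold, 32 beyond a ratio of 5 to 4 and 59 by total counts. Of all genes tested, 1.53% were called lower by the main scaling, 1.44% with DESeq2 factors or upper quartile and 1.36% with protein-coding TMM. Shares were 1.21% with 200 or more counts, 1.59% with no filter, 0.303% beyond 2-fold, 7.33% beyond 5 to 4 and 51.0% by total counts. The folds of 2 and of 5 to 4 are stricter and looser by construction. The other settings listed change the library scaling, which moves all ratios nearly alike, and the 4 called intervals ended just past the threshold. Members called higher numbered 0 in all 11 settings, against 1.01% (total counts) to 10.8% (5 to 4) of all genes tested. Other replication genes called lower went from 5 of 78 to 8 with no count filter and 68 by total counts. The shares over all genes tested are those given above. After the length and GC adjustment 1 interval, that of Pcna, lay above 0, against 24.5% of measured protein-coding genes.

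Total counts lowered every median: all 59 genes to -1.32, origin licensing to -1.28, helicase to -1.40, polymerases to -1.24, clamp and loader to -1.30, single-strand binding and joining to -1.38, nucleotide synthesis to -1.34, repair and chromatin to -1.41, cyclins and E2F to -1.22, fork protection to -1.24 and other replication genes to -1.12. Under the other settings the median of the 59 stayed between -0.57 and -0.46. Pcna changed sign with no count filter (-0.064) and by total counts (-0.82). With only TTTGGCGC and TTTCCCGC, 16 genes held E2F letters in place of 20. Depth limits the genes with few counts: Ccne1, Rpa3, Orc1 and Gins3 have among the widest intervals, and that of Ccne1, -0.64 to 0.19, holds both 0 and the median of the 59.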
